A study of Mus musculus with 8 samples.

Results

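Osteocalcin is a small secreted protein of bone matrix that osteoblasts make in large amounts. A vitamin K-dependent carboxylase converts some of its glutamate residues to γ-carboxyglutamate (Gla), which binds calcium, and the less carboxylated form circulates and has been studied as a hormone acting on pancreatic β cells. Most mammals have a single gene for it, whereas the mouse carries a tandem cluster: Bglap and Bglap2, the copies used in bone, and Bglap3, an osteocalcin-related gene. These 3 genes are described here across 8 libraries of MIN6, an insulin-producing line from a mouse pancreatic β-cell tumour. They are 3 of the 55536 genes in the count table, found by symbol, and all 3 are among the 18266 genes that passed the filter on low counts. They were selected on their measured difference between the Klf4 and empty-vector libraries, so that difference is described without a test. The filter asked for about 0.204 CPM in any 4 libraries. Below, a gene is said to reach this minimum in a group or its libraries when all 4 of them do. All 3 reached it in the Klf4 group only. Where the same holds for another gene, it needed Klf4 libraries to be tested, though some control libraries could also be at that level. Its values are therefore given without its test, and it is left out of the counts.

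The control group was transfected with pcDNA 3, an empty vector, and the Klf4 group with pGloMyc-Klf4, a plasmid that encodes the zinc-finger transcription factor Klf4. Both groups were labelled wild type and beta cells, were transfected for 48 h with a lipid reagent, and had 4 biological replicates of polyadenylated RNA. Replicates 1 and 2 of each group belong to batch 1 and replicates 3 and 4 to batch 2. The plasmid names point to unlike backbones, and effects of backbone and of Klf4 cannot be told apart. The extraction text mentions islets, while every sample is named as the cell line.

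Library totals lay between 45417853 and 52731176 counts. Klf4 itself was at 36.1 to 42.8 CPM (counts per 1e6 counts, scaled here with TMM factors) in the control libraries and at 4529 to 5849 CPM in the Klf4 libraries, with plasmid and endogenous transcripts counted together. The β-cell markers Ins1, Ins2, Iapp, Pdx1, Mafa and Neurod1 were present in every library and summed to 24249 to 30929 CPM in control and 22652 to 31220 CPM in Klf4 libraries. Across all genes, 36.6% of the 18266 tested genes changed at an adjusted p under 0.05 in the quasi-likelihood test of edgeR: 21.1% were higher and 15.5% were lower in Klf4 libraries. The median log2 fold change of all tested genes was -0.01.

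The cluster spans 15849 bases of chromosome 3 in GRCm38, and all 3 genes are protein-coding on the minus strand and overlap no other annotated gene. Bglap3 (ENSMUSG00000074489) lies at chr3:88368616-88372743. Bglap2 (ENSMUSG00000074486) lies at chr3:88377736-88378699, with 4992 bases between it and Bglap3. Bglap (ENSMUSG00000074483) lies at chr3:88383501-88384464, a further 4801 bases on. Bglap2 and Bglap are compact, with exons of 471 and 618 bases in all, whereas Bglap3 has upstream exons and 2629 exonic bases over 5 annotated transcripts.

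The copies are nearly identical, which bears on every count below. Each has a coding sequence of 285 bases without the stop codon, and these are shown because the capitals mark the few bases by which reads of the coding part can be assigned. Capitals in Bglap and Bglap3 mark bases that differ from Bglap2, and capitals in Bglap2 mark bases that differ from Bglap.
Bglap: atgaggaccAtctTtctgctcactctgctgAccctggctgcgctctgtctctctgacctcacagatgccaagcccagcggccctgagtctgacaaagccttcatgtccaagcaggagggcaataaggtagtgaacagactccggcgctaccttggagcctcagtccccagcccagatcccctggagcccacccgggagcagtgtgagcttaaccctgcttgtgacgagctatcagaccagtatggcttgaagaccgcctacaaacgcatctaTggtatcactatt
Bglap2: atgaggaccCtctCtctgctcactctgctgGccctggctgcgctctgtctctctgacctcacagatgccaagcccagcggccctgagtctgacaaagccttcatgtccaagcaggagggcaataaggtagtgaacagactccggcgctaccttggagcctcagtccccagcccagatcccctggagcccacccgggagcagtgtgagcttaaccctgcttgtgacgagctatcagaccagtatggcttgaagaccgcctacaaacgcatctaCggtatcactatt
Bglap3: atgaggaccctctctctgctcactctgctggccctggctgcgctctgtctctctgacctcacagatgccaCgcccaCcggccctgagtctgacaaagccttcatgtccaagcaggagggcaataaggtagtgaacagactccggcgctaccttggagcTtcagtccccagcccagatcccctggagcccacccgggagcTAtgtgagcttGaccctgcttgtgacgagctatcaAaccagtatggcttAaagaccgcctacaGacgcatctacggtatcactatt

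Bglap and Bglap2 differed at 4 of the 285 coding positions (98.6% identity), and their longest identical stretch was 241 bases. Bglap3 differed from Bglap2 at 9 positions (96.8%) and from Bglap at 13 positions (95.4%), with a longest identical stretch of 81 bases in both comparisons. Over whole transcripts, 73.3% of the 75-base windows of Bglap2 also occur in the transcripts of another gene, here always Bglap or Bglap3. The share was 50% for Bglap and 5.02% for Bglap3. Some Bglap3 windows also occur in A330049N07Rik and E330020D12Rik, which are not osteocalcin genes. For Bglap2, Bglap and Bglap3 in turn, the shares were 88.2%, 56.6% and 11.5% at 50 bases. At 100 bases they were 57.0%, 38.7% and 1.03%. How reads matching several genes were counted, and the read length, are not given in the sources used here, so the division of counts among the 3 genes is uncertain and is less so for their sum.

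In empty-vector cells the cluster was close to silent. Bglap had 3, 2, 3 and 0 counts in control replicates 1 to 4, and Bglap2 had 3, 3, 4 and 0 counts. Bglap3 had 10, 9, 12 and 10 counts, which made it the most counted of the 3 in every control library. Per length of all exons these levels came close together: 0.067 ± 0.0475 CPM per kb of exon for Bglap, 0.11 ± 0.0754 for Bglap2 and 0.0806 ± 0.00917 for Bglap3 (SD, n = 4), with all neighbouring values inside the spread. That closeness depends on the 2629 exonic bases of Bglap3. The shortest coding transcripts have 717 bases for Bglap3, 471 for Bglap2 and 440 for Bglap. Against those lengths the control mean of Bglap3 is above both others. A count of 3 corresponds to 0.0608 to 0.0637 CPM in a control library, so Bglap was at or under this floor in all 4 and Bglap2 was above it only in replicate 3.

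In Klf4-transfected cells all 3 genes were higher, Bglap2 most of all. Bglap2 had 2320, 1832, 2648 and 2970 counts in Klf4 replicates 1 to 4, or 44.9, 40.4, 50.3 and 56.3 CPM. Bglap had 496, 424, 661 and 724 counts, or 9.59, 9.36, 12.6 and 13.7 CPM. Bglap3 had 79, 63, 111 and 72 counts, or 1.53, 1.39, 2.11 and 1.36 CPM. For each gene the lowest Klf4 library lay above the highest control library, as it did for 17.2% of all tested genes; since this contrast chose the genes, nothing is read from that. In bulk RNA a change in every cell cannot be told apart from a large change in the transfected ones.

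The size of the increase was known poorly for the copies that were near 0 in control cells. Bglap2 went from 10 counts in all control libraries together to 9770 in the Klf4 libraries, a 933.6-fold difference after scaling, with a 95% counting interval of 507.5 to 1948. For Bglap, 8 control counts against 2305 gave 275.3-fold (139.5 to 638.5). Bglap3 went from 41 to 325 counts, 7.58-fold (5.46 to 10.8). The intervals are exact binomial ones that cover counting error only. The fitted log2 fold changes were 9.79 for Bglap2, 8.01 for Bglap and 2.90 for Bglap3, which placed them 28th, 79th and 659th from the top of the 18266 tested genes.

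**Figure D1:**
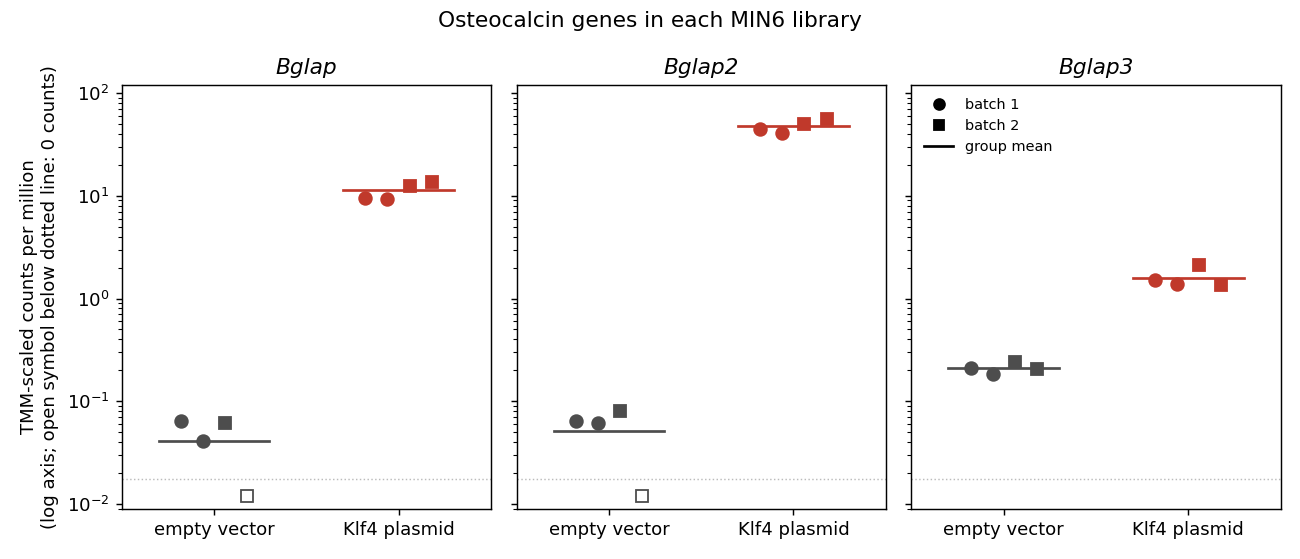
Levels in CPM of Bglap, Bglap2 and Bglap3 in each library on a log axis, by plasmid, with circles for batch 1, squares for batch 2 and lines at the group means. Open symbols are control replicate 4, which had 0 counts of Bglap and Bglap2; Klf4 libraries lie at 40.4 to 56.3 CPM for Bglap2, 9.36 to 13.7 CPM for Bglap and 1.36 to 2.11 CPM for Bglap3.

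The order of the copies differed between the groups. Summed over the cluster, the control libraries held 16, 14, 19 and 10 counts and the Klf4 libraries 2895, 2319, 3420 and 3766. Bglap3 took 62.5%, 64.3%, 63.2% and 100% of these counts in control replicates 1 to 4, but only 2.73%, 2.72%, 3.25% and 1.91% in Klf4 replicates 1 to 4. With so few control counts the share was imprecise, with a Wilson 95% interval of 38.6% to 81.5% for Bglap3 in control replicate 1 that covers counting error only. Bglap2 held 80.1%, 79.0%, 77.4% and 78.9% of the cluster's counts in Klf4 replicates 1 to 4. Bglap held the remaining 17.1%, 18.3%, 19.3% and 19.2%.

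Within the Klf4 libraries Bglap2 had several times the counts of Bglap. Their ratio of counts was 4.68, 4.32, 4.01 and 4.10 in replicates 1 to 4, with both libraries of batch 1 above both of batch 2. Per length of exon the Klf4 libraries had 101.9 ± 14.5 CPM per kb of Bglap2, 18.3 ± 3.51 of Bglap and 0.608 ± 0.132 of Bglap3 (SD, n = 4), and no neighbouring pair in this order overlapped. Per exonic length Bglap2 exceeded Bglap 5.61 ± 0.391-fold and Bglap3 172.4 ± 41.1-fold (SD, n = 4). Measured against the shortest coding transcript of each gene, of 471, 440 and 717 bases for Bglap2, Bglap and Bglap3, these ratios were 4.00 and 47.0. Reads that fit more than 1 copy bear on each of these ratios, and their part was not tested.

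**Figure D2:**
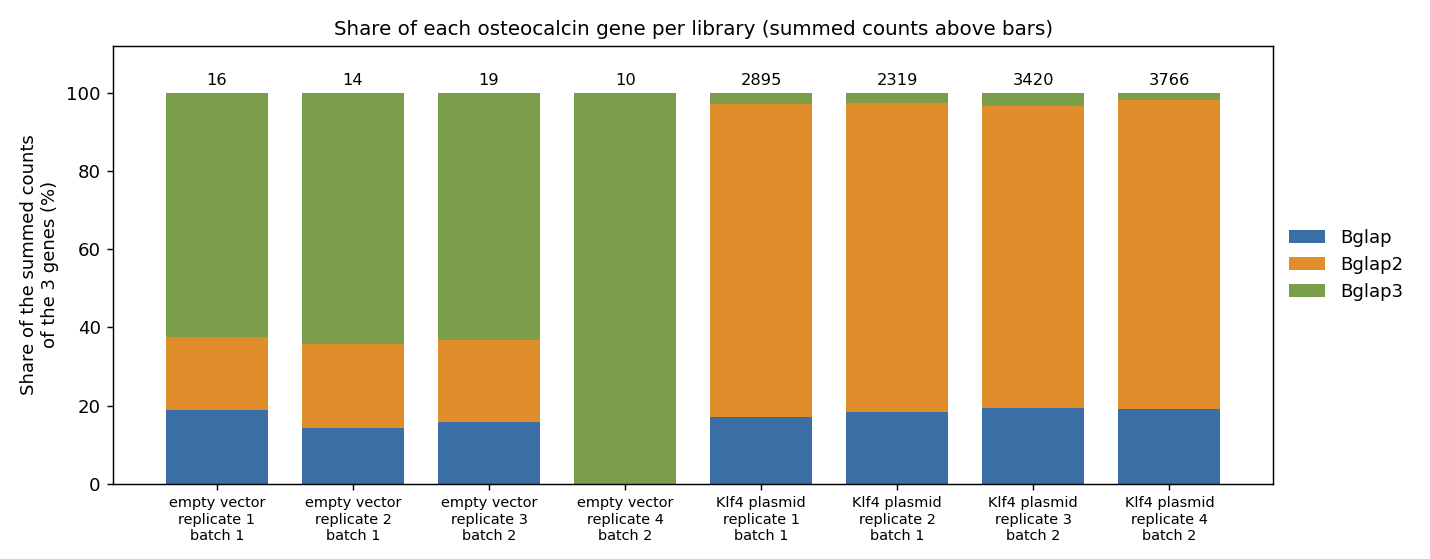
Bars give the percentage of the summed counts of the 3 genes taken by Bglap, Bglap2 and Bglap3 in each library, with the summed count above each bar. Bglap3 takes 62.5% to 100% of 10 to 19 counts in the empty-vector libraries, and Bglap2 takes 77.4% to 80.1% of 2319 to 3766 counts in the Klf4 libraries.

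Batches were compared next, a contrast that did not enter the choice of the genes. In Klf4 libraries Bglap2 averaged 42.7 CPM in batch 1 against 53.3 CPM in batch 2. The Bglap means were 9.48 against 13.1 CPM. For both genes the 2 Klf4 libraries of batch 2 lay above the 2 of batch 1, in the order replicate 4, 3, 1, 2. Klf4 itself had that order, at 5849, 4900, 4870 and 4529 CPM. Bglap3 did not, at 1.36, 2.11, 1.53 and 1.39 CPM in the same replicates. Control means went the other way, on at most 4 counts per library. They were 0.0626 CPM in batch 1 against 0.0405 in batch 2 for Bglap2, and 0.0524 against 0.0304 for Bglap. The batch term was 0.32 on the log2 scale for Bglap2 (SE 0.08, edgeR adjusted p 0.00381) and 0.45 for Bglap (SE 0.12, adjusted p 0.00839). With so few control counts, these terms rest almost wholly on the Klf4 libraries. The term for Bglap3 was 0.23 (SE 0.24, edgeR adjusted p 0.536). Of all tested genes 25.1% differed between batches by this test, 13.4% higher in batch 2. The calls for both genes were lost in the DESeq2 Wald test, at adjusted p 0.600 for Bglap2 and 0.488 for Bglap. They were also lost without Klf4 replicate 2 (0.0655 and 0.06) or Klf4 replicate 4 (0.0808 and 0.091), and that for Bglap without Klf4 replicate 1 (0.061). The part of the higher Klf4 level in batch 2 was not tested.

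The difference between plasmids, on which the genes were selected over both batches, is given by batch as a description. For Bglap2 it was 9.35 on the log2 scale in batch 1 and 10.27 in batch 2, for Bglap 7.43 and 8.64, and for Bglap3 2.86 and 2.94. The difference between the batches did not pass the threshold for any of the 3, with interaction terms of 0.90 (SE 0.98, edgeR adjusted p 0.817) for Bglap2, 1.19 (SE 1.02, adjusted p 0.748) for Bglap and 0.07 (SE 0.60, adjusted p 0.992) for Bglap3. Among all tested genes 0.766% passed this test. For Bglap and Bglap2 the term rests on 3 to 6 control counts per batch, so a sizeable difference was not detectable at this depth.

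The promoter table from RefSeq (build GRCm38.p6, 250 bases before to 50 after each start) matched Bglap with 1 window and Bglap3 with 3 windows, so that 2 of the 3 genes had an entry. The 250 bases before the Bglap start and those before the most downstream Bglap3 start are shown on the minus strand because they let the most induced matched copy be set beside the least induced one. Capitals mark matches on either strand to 4 motifs, where the match lies wholly before the start. CACCC is a core of Krüppel-like factor sites. The site of Runx factors was searched for with the letters AACCACA. The E-box, which reads alike on both strands, was searched for with CANNTG, and the TATA box, which positions many transcription starts, was searched for with the letters TATAAA.
Bglap, chr3:88384467-88384716: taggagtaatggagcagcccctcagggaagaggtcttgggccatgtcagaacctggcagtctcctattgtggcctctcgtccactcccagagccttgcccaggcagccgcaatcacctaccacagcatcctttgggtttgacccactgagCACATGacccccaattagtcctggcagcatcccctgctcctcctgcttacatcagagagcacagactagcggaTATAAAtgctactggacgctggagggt
Bglap3, chr3:88369832-88370081: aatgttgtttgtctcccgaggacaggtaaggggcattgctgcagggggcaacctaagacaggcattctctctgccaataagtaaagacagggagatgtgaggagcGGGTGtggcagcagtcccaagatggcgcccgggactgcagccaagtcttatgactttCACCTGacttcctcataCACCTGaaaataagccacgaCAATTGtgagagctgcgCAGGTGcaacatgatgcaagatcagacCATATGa

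The Bglap window held 1 TATAAA, beginning 27 bases before the start, a motif found in 13.6% of the 32544 distinct promoter windows of the table and in none of the 3 Bglap3 windows. The most upstream Bglap3 window, not printed, holds tataag, which differs from TATAAA in the last letter alone. Absence here is thus of the exact letters and not of any TATA box. CACCC occurred once in the Bglap window, on the opposite strand as GGGTG across the start itself, and once in the Bglap3 window printed above. It was absent from the other Bglap3 windows and present in 57.7% of all windows. The most upstream Bglap3 window holds gcgtg, which differs from GGGTG in the second letter alone. That absence, too, is of the exact letters and not of any Krüppel-like factor site. The E-box CANNTG occurred once in the Bglap window and 4, 2 and 7 times in the Bglap3 windows, against at least 1 match in 72.3% of all windows. AACCACA was found in none of the 4 windows and in 5.29% of all windows. The Bglap sequence does hold taccaca, which differs from the searched letters in the first alone. The absence is thus of the exact letters and not of any Runx site. These are matches of letters only.

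The neighbours of the cluster were examined in the same fit. Of 17 other annotated genes that reach within 100 kb of it, 12 were tested, of which Gm37116 reached the minimum only in the Klf4 libraries. Of the other 11, 5 passed the threshold, 4 higher and 1 lower, where 36.6% of all tested genes passed, and their median log2 fold change was 0.03. The nearest genes on both sides showed little difference. Paqr6, a membrane progestin receptor family gene next to Bglap3, had 18, 9, 2 and 18 counts in control and 13, 14, 10 and 13 in Klf4 libraries (log2 fold change 0.03, SE 0.46, edgeR adjusted p 0.97). Pmf1, a kinetochore component gene on the Bglap side, had 2359, 2179, 2403 and 2381 counts in control and 2422, 2060, 2361 and 2623 in Klf4 libraries (-0.04, SE 0.04, adjusted p 0.457). The pseudogenes Gm21956 and Gm6821 between the copies had at most 1 and 4 counts in any library.

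Farther out, Sema4a, a semaphorin gene, had 23.3 ± 1.72 CPM in control and 46.0 ± 2.92 CPM in Klf4 libraries (SD, n = 4), a rise of 0.98 on the log2 scale (edgeR adjusted p 5.36e-13). Tmem79, a transmembrane protein gene of the epidermis, rose from 3.15 ± 0.374 to 8.20 ± 0.922 CPM (1.38, adjusted p 2.31e-10), and it overlaps Glmp, which rose by 0.28 (adjusted p 1.23e-05). Lmna, which encodes lamins A and C of the nuclear envelope, rose by 0.68 (adjusted p 3.41e-11), and the chaperonin subunit gene Cct3 fell by 0.09 (adjusted p 0.0107), a call lost in batch 1 alone (0.304) and without the batch term (0.186). The lowest Klf4 library lay above the highest control library for the 4 that rose, as for 17.2% of all tested genes. Smg5, Slc25a44, Tsacc and Gm42814 did not pass the threshold, with log2 fold changes of 0.07, -0.07, -0.21 and -0.58. Of these, Smg5 passed without Klf4 replicate 2 (0.09, adjusted p 0.0443), Slc25a44 without Klf4 replicate 4 (-0.11, adjusted p 0.0181) and Gm42814 without control replicate 2 (-0.83, adjusted p 0.038).

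**Figure D3:**
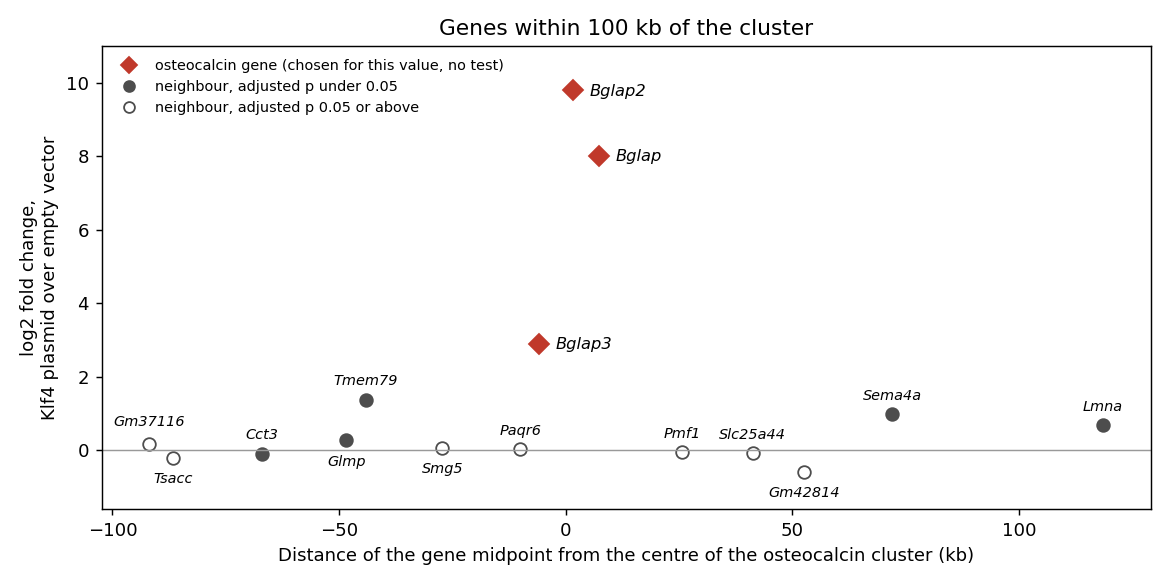
Each point is a tested gene, placed by the distance of its midpoint from the centre of the cluster in kb and by its log2 fold change. The 3 osteocalcin genes stand at 2.90 to 9.79, while the 12 tested neighbours lie between -0.58 and 1.38.

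G protein-coupled receptors have been proposed to sense osteocalcin. Gprc6a, the receptor proposed for β cells, had 67, 66, 55 and 49 counts in control and 50, 47, 63 and 55 in Klf4 libraries, so the groups overlapped (log2 fold change -0.20, SE 0.19, adjusted p 0.463 by edgeR). Gpr158, described as its receptor in the brain, was far more abundant and was lower in Klf4 libraries, with 82.0 ± 5.34 CPM against 92.4 ± 7.51 (SD, n = 4); its log2 fold change was -0.17 (SE 0.03, edgeR adjusted p 0.000156). Its groups overlapped across the batches and not within them, and the call was lost without the batch term (adjusted p 0.0706). Gpr37, a further candidate receptor, had 5, 1, 5 and 8 counts in control and 33, 18, 32 and 37 in Klf4 libraries, a 6.04-fold difference with a counting interval of 3.70 to 10.4; it reached the minimum only in the Klf4 libraries.

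Genes of the vitamin K cycle and of carboxylation, which make the Gla residues, were all expressed. Of 8 tested, 4 rose and 1 fell, where 21.1% and 15.5% of all tested genes did, and their median log2 fold change was 0.09. Ggcx, the γ-glutamyl carboxylase, had 23.3, 23.8, 18.4 and 19.2 CPM in control and 22.3, 21.2, 17.1 and 16.1 CPM in Klf4 libraries, a fall of 0.14 on the log2 scale (SE 0.05, edgeR adjusted p 0.0275). Its call was lost without Klf4 replicate 2 (adjusted p 0.0558), Klf4 replicate 4 (0.0764) or control replicate 4 (0.0691), within batch 1 (0.235) or batch 2 (0.114) alone, and without the batch term (0.454). Vkorc1, the epoxide reductase that recycles vitamin K, had 4.05 ± 0.254 and 3.44 ± 0.421 CPM (SD, n = 4; -0.24, adjusted p 0.108), and passed the threshold without Klf4 replicate 4 (-0.33, adjusted p 0.0354). Rises were seen in the quinone reductases Nqo1 (0.48, adjusted p 0.00062) and Aifm2 (0.31, adjusted p 7.03e-05), in Calu, which encodes the carboxylase regulator calumenin (0.17, adjusted p 0.00029), and in the Vkorc1 relative Vkorc1l1 (0.13, adjusted p 0.00335). Nqo1 differed far more between batches, with control levels of 1.83 and 2.46 CPM in batch 1 against 17.4 and 19.5 CPM in batch 2, and its plasmid difference was 0.95 in batch 1 and 0.30 in batch 2. Without the batch term the calls of Nqo1 (adjusted p 0.784), Aifm2 (0.0567) and Vkorc1l1 (0.0753) were lost, and in batch 1 alone those of Vkorc1l1 (0.072) and Calu (0.0764).

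Among 15 other genes for Gla proteins, 7 were tested, of which F2 and Gas6 reached the minimum only in the Klf4 libraries. Of the other 5, 1 rose, where 21.1% of all tested genes did, and their median log2 fold change was 0.35. Pros1, the anticoagulant protein S, had 2.02 ± 0.585 CPM in control and 6.15 ± 0.84 CPM in Klf4 libraries (SD, n = 4), a rise of 1.62 (SE 0.15, edgeR adjusted p 1.35e-08). The prothrombin gene F2 had 18, 23, 10 and 33 counts in control and 44, 32, 63 and 43 in Klf4 libraries. Gas6, a ligand of the TAM receptor kinases, had 13, 7, 12 and 6 counts in control and 18, 10, 25 and 36 in Klf4 libraries, and its groups overlapped. Mgp, the matrix Gla protein of cartilage and vessel walls, had 0 counts in all 8 libraries.

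**Figure D4:**
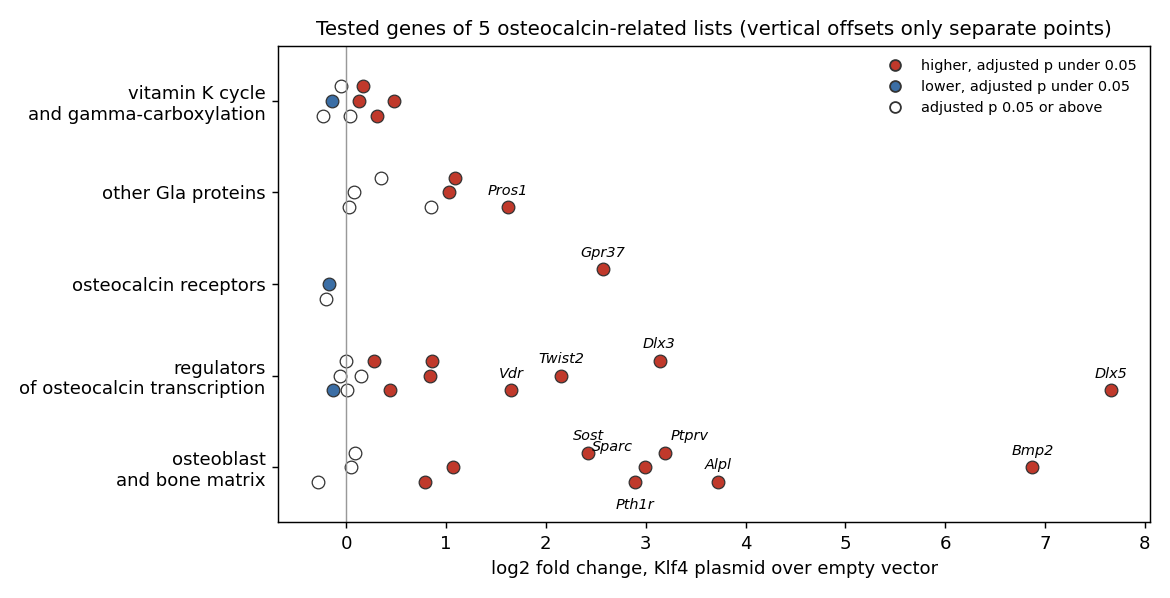
Each point is a tested gene of 5 lists related to osteocalcin, placed by its log2 fold change, with filled points past an adjusted p of 0.05. Filled points include Bmp2, Alpl, Sparc, Pth1r, Dlx5, Twist2, Gpr37, Gas6 and F2, which reached the minimum of the filter only in the Klf4 libraries. These needed Klf4 libraries to be tested, even where some control libraries were at that level, so nothing is read from their fill. Genes of the osteoblast list reach 6.87 (Bmp2), those of carboxylation stay between -0.24 and 0.48, and the values of Dlx5 and Bmp2 depend on the prior count because their control counts were at or near 0.

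Known regulators of osteocalcin transcription were mostly measurable in these cells. Of 19 listed, 13 were tested, of which Dlx5 and Twist2 reached the minimum only in the Klf4 libraries. Of the other 11, 6 rose and 1 fell, where 21.1% and 15.5% of all tested genes did, and their median log2 fold change was 0.28. Vdr, the vitamin D receptor, rose from 20.8, 20.1, 21.7 and 18.5 CPM to 57.7, 56.9, 71.4 and 70.5 CPM (log2 fold change 1.65, SE 0.06, edgeR adjusted p 2.64e-16). Dlx3, a homeobox gene of bone and skin, had 1.78 ± 0.382 CPM in control and 15.7 ± 2.52 CPM in Klf4 libraries (SD, n = 4), a rise of 3.14 (SE 0.10, edgeR adjusted p 2.49e-17). Dlx5, of the same family, had 0 counts in every control library and 13, 24, 33 and 33 in the Klf4 libraries, at least 8.19-fold above a floor of 3 counts per library. Twist2, a repressor of Runx2 activity, had 8, 1, 3 and 0 counts in control and 11, 19, 15 and 11 in Klf4 libraries. Of the others that rose, Cebpb (0.86), Fosl1 (0.84), Hes1 (0.44) and Jund (0.28) changed less, and Atf4, an activator of osteocalcin transcription in osteoblasts, fell by 0.13 (adjusted p 0.000226). The Atf4 call was lost without the batch term (adjusted p 0.073) and that of Fosl1 in batch 1 alone (0.0684).

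The master regulators of osteoblasts were at or near 0. Runx2, the factor that binds the osteocalcin promoter in bone, had 0 counts in all control libraries and 22, 9, 7 and 9 in the Klf4 libraries, which left it below the filter and at least 3.74-fold above the same floor. Runx2 overlaps other annotated genes, and the strand setting of the counting is not given in the sources used here. Sp7, the osteoblast factor osterix, had 3, 1, 3 and 0 counts in control and 6, 0, 8 and 5 in Klf4 libraries and was not tested.

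Other genes of osteoblasts and bone matrix differed in part. Of 18 listed, 11 were tested, of which Alpl, Spp1, Sparc, Pth1r and Bmp2 reached the minimum only in the Klf4 libraries. Of the other 6, 4 rose and none fell, where 21.1% and 15.5% of all tested genes did, and their median log2 fold change was 0.93. Alpl, the alkaline phosphatase of mineralising cells, had 19, 8, 19 and 20 counts in control and 203, 163, 247 and 312 in Klf4 libraries. Bmp2, a bone morphogenetic protein, went from 2, 0, 0 and 2 counts to 128, 103, 154 and 168, a 132.1-fold difference with a counting interval of 51.3 to 486.6. The phosphatase gene Ptprv (osteotesticular phosphatase) rose by 3.19 (edgeR adjusted p 2.21e-15). Sparc, the matrix protein osteonectin, had 3, 4, 3 and 3 counts in control and 17, 10, 32 and 62 in Klf4 libraries, an 8.89-fold difference with a counting interval of 5.01 to 17.2. Sost, which encodes the Wnt inhibitor sclerostin of osteocytes, rose by 2.42 (adjusted p 1.24e-11). Col1a1, a chain of type I collagen, rose from 1.91 ± 0.511 to 3.97 ± 0.489 CPM (SD, n = 4; 1.07, adjusted p 3.51e-07), whereas its partner chain Col1a2 did not pass the threshold (0.09, adjusted p 0.734).

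Some defining genes of bone were at or near 0. Ibsp (bone sialoprotein) and Mepe had 0 counts in every library and Dmp1 at most 2. Spp1 (osteopontin) was detected at 9 to 37 counts in control and 15 to 33 in Klf4 libraries. The whole list of 18 summed to 10.7 to 11.7 CPM in control and 29.9 to 39.5 CPM in Klf4 libraries. These groups did not overlap, as was so for 17.2% of all tested genes taken singly. The sum includes Alpl, Spp1, Sparc, Pth1r and Bmp2, which were left out of the counts. Ptprv had the highest mean over all libraries. The other 17 summed to 9.87 to 10.8 CPM in control and 22.1 to 28.6 CPM in Klf4 libraries. The osteocalcin genes were not among these 18 and alone summed to a mean of 60.9 CPM in Klf4 libraries. Among 13 markers of other cells the libraries could hold, 7 were tested. Dcn, Acan, Krt19 and Cdh5 reached the minimum only in the Klf4 libraries, and none of the other 3 (Gcg, Pecam1 and Cd68) passed the threshold. The proteoglycan genes Dcn and Acan had 9 and 4 counts over all control libraries against 3595 and 136 over the Klf4 libraries, and the endothelial cadherin gene Cdh5 had 0 control counts and 14 to 28 per Klf4 library. Krt19, an epithelial keratin gene, had 7 to 16 counts in control and 114 to 212 in Klf4 libraries, while Lum had 0 counts throughout. All 13 summed to 69.6 to 98.3 CPM in control and 89.4 to 123.2 CPM in Klf4 libraries. Most of that sum was Gcg, the glucagon gene, at 73.3 ± 14.2 and 71.2 ± 20.3 CPM (SD, n = 4); the other 12 summed to 10.1 to 10.5 CPM in control and 28.8 to 37.5 CPM in Klf4 libraries. Of the 6 β-cell markers, Mafa, Neurod1, Pdx1 and Iapp fell by 0.18, 0.14, 0.12 and 0.07 on the log2 scale, against 15.5% of all tested genes called lower. None of the 4 calls held without the batch term (adjusted p 0.0576 to 0.365) or in batch 1 alone (0.0633 to 0.437), and that of Iapp was lost in batch 2 alone as well (0.0755). The part of either marker list in the rise of the osteocalcin genes was not tested.

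The genes whose pattern was most like that of Bglap2 were sought among the 4587 others of similar average level, by Pearson correlation of log2(CPM + 0.5) over the 8 libraries. The 4 nearest were Padi4 (0.9997), a peptidylarginine deiminase, Slurp1 (0.9997), a secreted Ly6 protein of the epidermis, S100a14 (0.9996), an epithelial calcium-binding protein gene, and Anxa8 (0.9996), an annexin. In control libraries these 4 lay between 0 and 0.144 CPM and in Klf4 libraries between 22.0 and 69.2 CPM. All 8 points share the division into 2 groups, so such correlations mainly restate it, and 68 genes had a correlation above 0.99.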

How the data were processed

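The authors deposited whole-number read counts per gene, 1 column per library, neither normalised nor pooled. Per the submitters' processing notes, FastQC, STAR, featureCounts and edgeR were used with build mm10, and the deposited counts are named as trimmed with cutadapt; versions, strand setting, treatment of multi-mapping reads and annotation are not given in the sources used here. All 55536 gene identifiers and symbols matched GENCODE M21 (GRCm38), the source of positions, lengths and transcript sequences.

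The counts were analysed in edgeR 4.0.16 (R 4.3.3). filterByExpr (minimum count 10) kept 18266 genes, TMM factors were 0.996 to 1.01, and glmQLFit with terms for batch and plasmid (prior count 0.125) was tested with glmQLFTest, with Benjamini-Hochberg adjustment over all tested genes and a threshold of 0.05. Log2 fold changes are Klf4 over control. Interactions came from a model with batch, plasmid and their product. The fits were tested on simulated data. DESeq2 1.42.0, other scalings, filters, prior counts, a replicate block and the omission of each library were alternatives. Figures used Python 3.11.15.

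The osteocalcin genes and all gene lists were chosen with earlier results of these data known. Named genes were the 3 osteocalcin genes, Klf4, preset defining genes of each list, up to 4 of largest change per list, every tested neighbour within 100 kb, and the 5 genes most correlated with Bglap2, of which 1 is not reported here; others named (such as Vkorc1l1, Fosl1, Spp1, Mgp and Col1a2) were chosen after their values were seen. No pair of replicates looked like 1 library deposited again, as chi-square per degree of freedom was 4.23 to 23.3. Same-numbered libraries shared a batch, and their deviations from the group means correlated at 0.48 to 0.64 over 10485 genes. A shared batch alone could give such correlations, and differently numbered libraries of a batch were not compared. Pairing by number was therefore not established, and the replicate block was run only as an alternative.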

Additional observations from a re-analysis of the deposited data

Results flagged for a closer look

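A library far from the other 3 of its group was looked for in 107 sets of 4 values and found in 9, where chance gives about 5.35. Control replicate 4 stood apart in the makeup of the cluster, with a Bglap2 share of 0% and a Bglap3 share of 100%, on 10 counts in all. Control libraries also stood apart for Alpl, lowest at 0.164 CPM in replicate 2, and for Gm37116, highest at 0.552 CPM in replicate 1. At 1 to 4 counts, single control libraries were highest for Anxa8 (0.0405 CPM), Slurp1 (0.0425 CPM) and Sparc (0.0821 CPM). Among Klf4 libraries, Glmp was highest at 50.2 CPM in replicate 4, and the lowest total was 45417853 counts in replicate 2.

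The plasmid effect differed between batches for 3 of the named genes by edgeR's interaction test. The interaction term (batch 2 against batch 1) was 0.37 on the log2 scale for Klf4 (adjusted p 0.0057). It was 0.31 for Lmna (adjusted p 0.00631) and -0.25 for the β-cell factor Mafa (adjusted p 0.00817).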

How the results depend on the processing

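The log2 fold changes of the osteocalcin genes kept their direction under all 20 alternatives, from 7.12 to 8.64 for Bglap, 7.63 to 10.27 for Bglap2 and 2.70 to 7.63 for Bglap3. The value of 7.63 is that of the 3 genes counted as 1 feature. Without single libraries they ranged from 7.53 to 8.32, 9.33 to 10.02 and 2.72 to 3.03. With the replicate block they were 8.01, 9.79 and 2.89. Leaving aside genes that reached the minimum only in the Klf4 libraries, the block changed no call among the 46 named genes. The batch term ranged without single libraries from 0.39 to 0.49 for Bglap, 0.24 to 0.39 for Bglap2 and -0.0050 (without Klf4 replicate 3) to 0.43 for Bglap3, and by DESeq2 it was 0.36 for Bglap and 0.25 for Bglap2, neither past the threshold. The interaction term ranged from 0.26 to 4.90 for Bglap, -0.042 (without control replicate 4) to 5.004 for Bglap2 and -0.30 to 0.35 for Bglap3, and was negative for Bglap3 without Klf4 replicate 3 (-0.30), control replicate 1 (-0.05) or control replicate 4 (-0.04). Per length of the shortest coding transcript, the ratio of Bglap2 to Bglap was 4.00 and to Bglap3 47.0, because these lengths differ from the exonic ones; without single libraries the main ratios were 5.44 to 5.73 and 153.1 to 185.5. The number of higher genes stayed within 1.5 times of 3856, whereas that of lower genes, 2828, was 1159 without the batch term, 1583 and 1804 within batches 1 and 2, and 1696 at an adjusted p under 0.01; without single libraries it was 2446 to 3305. The tally that follows includes genes that reached the minimum only in the Klf4 libraries, from whose calls nothing is read. Gas6 gave 10 of its losses, F2 3 and Twist2 1. Of 770 values of 46 named genes under the alternatives, 721 kept direction and side of the threshold, 35 lost it, 4 gained it and 10 changed sign. The latter belong to genes that did not pass the threshold: Paqr6 (-0.022 in batch 1; -0.34 to 0.53 without single libraries, with -0.03 without Klf4 replicate 2, -0.06 without Klf4 replicate 4, -0.17 without control replicate 2 and -0.34 without control replicate 3), Gm37116 (-0.38 in batch 1, and -0.11 to 0.92 without single libraries, with -0.0034 without control replicate 4), Gprc6a (0.084 in batch 2) and Tsacc (-0.52 to 0.039 without single libraries, the latter without Klf4 replicate 4). Causes of these shifts were not tested. Depth limits the control side, where Bglap and Bglap2 rest on 8 and 10 counts in all.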
